A study of Mus musculus with 2 samples.

Results

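Inhibin, activin, follistatin and anti-Müllerian hormone genes were examined in the open chromatin of the aged mouse ovary. The set held 8 of 21728 protein-coding genes, chosen by name: Inha, Inhba, Inhbb, Fst, Amh, Amhr2, Acvr2a and Acvr2b. For each gene, the regions within its GENCODE M21 gene body and 50 kb on either side were taken, on mouse build mm10, which gave 121 of 112418 regions in all. A region is a stretch covered by 1 or more overlapping peaks of the 2 libraries, and it is called shared where both libraries list a peak in it.

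Whole ovary of female B6CASTF1/J mice, the first-generation hybrid of C57BL/6 and CAST, was profiled by DNase-seq at 18 to 20 months of age. DNase-seq maps where the enzyme DNase I cuts nuclear DNA, so that peaks mark accessible chromatin and short uncut stretches inside them, called footprints, mark protected bases. The labels name 1 group with 2 biological replicates, entered under the same donor record, and do not say whether they came from separate animals. The spread between them may thus be technical, and no comparison between conditions can be made. The sources used here do not say how reads carrying CAST alleles were mapped.

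Inhibins and activins are dimers built from shared subunits of the transforming growth factor beta superfamily. An alpha subunit joined to a beta subunit makes an inhibin, which lowers pituitary secretion of follicle-stimulating hormone, while a pair of beta subunits makes an activin, which raises it. Follistatin binds and neutralises activins, type II receptors bind activins and pass the signal to SMAD proteins, and anti-Müllerian hormone from the granulosa cells of growing follicles acts through a type II receptor of its own.

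The sequences that the results below return to are shown here, 5′ to 3′, with capitals for the bases that lie inside footprints of both replicates. The first 4 are the parts of the strongest promoter regions that run from at most 250 bases before the start used by the RefSeq promoter table (GRCm38.p6, the build also called mm10) to at most 30 bases after the GENCODE start, on the strand of the gene. The table held an entry for 6 of the 8 genes. These 4 show how protected bases are spread over the promoters of the receptor genes with the higher signals (Acvr2b, chr9:119401928-119402147, and Acvr2a, chr2:48813981-48814138) and over promoters with lower signals (Amhr2, chr15:102445181-102445396, and Inhbb, chr1:119422219-119422460, read on the minus strand).
Acvr2b promoter: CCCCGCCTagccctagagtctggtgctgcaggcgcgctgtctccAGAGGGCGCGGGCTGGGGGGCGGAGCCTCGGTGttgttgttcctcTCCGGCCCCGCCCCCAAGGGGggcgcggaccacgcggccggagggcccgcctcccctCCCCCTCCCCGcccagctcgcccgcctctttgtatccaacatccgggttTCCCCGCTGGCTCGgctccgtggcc
Acvr2a promoter: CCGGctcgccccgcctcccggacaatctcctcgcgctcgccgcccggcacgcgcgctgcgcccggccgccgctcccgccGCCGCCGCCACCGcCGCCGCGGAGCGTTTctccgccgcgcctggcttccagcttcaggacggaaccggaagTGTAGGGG
Amhr2 promoter: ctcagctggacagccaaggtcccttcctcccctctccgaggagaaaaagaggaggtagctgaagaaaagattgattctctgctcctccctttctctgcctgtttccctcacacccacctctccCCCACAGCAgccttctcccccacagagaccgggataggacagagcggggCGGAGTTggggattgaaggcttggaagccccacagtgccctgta
Inhbb promoter: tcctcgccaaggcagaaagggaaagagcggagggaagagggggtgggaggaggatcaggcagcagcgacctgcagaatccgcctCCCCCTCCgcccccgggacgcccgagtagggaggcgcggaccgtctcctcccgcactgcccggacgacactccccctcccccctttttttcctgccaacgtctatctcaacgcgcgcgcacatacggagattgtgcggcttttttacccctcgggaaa
The next 4, on the plus strand of mm10, are distal regions, which lie more than 500 bp from every protein-coding start. The region downstream of Inha (chr1:75516911-75517210) and the pair downstream of Inhbb (chr1:119404921-119405160 and chr1:119386391-119386690) carry matches to the motif of the NR5A nuclear receptors, and the region upstream of Amhr2 (chr15:102442581-102442800) carries a long footprint.
Inha distal, 9.98 kb: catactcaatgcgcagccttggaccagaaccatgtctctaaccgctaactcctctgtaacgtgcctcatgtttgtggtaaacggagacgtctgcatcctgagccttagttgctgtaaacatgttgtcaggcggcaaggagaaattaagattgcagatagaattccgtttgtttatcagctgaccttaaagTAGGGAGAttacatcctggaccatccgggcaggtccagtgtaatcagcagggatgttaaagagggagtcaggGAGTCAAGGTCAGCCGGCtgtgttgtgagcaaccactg
Inhbb distal, 17.21 kb: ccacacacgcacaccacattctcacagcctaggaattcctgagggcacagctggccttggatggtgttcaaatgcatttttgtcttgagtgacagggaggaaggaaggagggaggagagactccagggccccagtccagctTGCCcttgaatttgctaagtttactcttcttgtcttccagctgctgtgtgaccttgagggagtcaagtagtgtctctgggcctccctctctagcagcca
Inhbb distal, 35.71 kb: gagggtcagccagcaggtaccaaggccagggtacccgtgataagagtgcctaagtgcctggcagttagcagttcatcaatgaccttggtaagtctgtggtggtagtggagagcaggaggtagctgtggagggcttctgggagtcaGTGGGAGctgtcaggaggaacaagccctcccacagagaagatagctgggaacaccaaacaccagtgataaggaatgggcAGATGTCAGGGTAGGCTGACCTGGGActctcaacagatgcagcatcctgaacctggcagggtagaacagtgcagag
Amhr2 distal, -2.68 kb: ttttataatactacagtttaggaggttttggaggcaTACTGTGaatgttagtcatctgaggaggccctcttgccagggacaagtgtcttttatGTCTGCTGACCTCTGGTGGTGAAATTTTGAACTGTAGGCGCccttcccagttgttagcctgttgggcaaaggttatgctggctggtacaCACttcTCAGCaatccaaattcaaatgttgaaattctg

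The longer deposited lists held 95860 peaks in replicate 1 and 83934 in replicate 2 on the autosomes and X, with median signals of 0.807 and 0.797. The signal is the authors' own depth-scaled strength of each peak, and since the read depth is unknown it carries no counting interval. Of the markers of ovarian cell types, 4 of 5 granulosa genes, 4 of 4 theca and luteal genes and 4 of 4 stromal genes had promoter peaks in both libraries. The granulosa receptor gene Fshr had one only in replicate 2, at 0.43. None of the 4 oocyte genes and none of the 3 hepatocyte genes had a promoter peak in either replicate, and 1 of 3 surface epithelium, 2 of 3 endothelial, 0 of 3 macrophage and 1 of 2 Sertoli genes had one in both. In whole tissue, fewer cells of a type and less accessible chromatin per cell cannot be told apart.

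Each of the 8 genes had promoter peaks in both libraries, at the same region. A promoter peak here lies within 500 bp of an annotated start, and 62.3% of protein-coding genes had one in both replicates. Relative to each other, the genes fell into a stronger and a weaker set by mean signal. The receptor gene Acvr2b (6.09 ± 1.13; SD, n = 2), the inhibin alpha gene Inha (5.02 ± 1.18; SD, n = 2), the receptor gene Acvr2a (4.15 ± 0.00962; SD, n = 2) and the activin beta A gene Inhba (3.14 ± 0.551; SD, n = 2) had mean signals above 3. The AMH receptor gene Amhr2 (1.89 ± 0.593; SD, n = 2), Amh (1.49 ± 0.537; SD, n = 2), Fst (1.23 ± 0.204; SD, n = 2) and the activin beta B gene Inhbb (1.19 ± 0.36; SD, n = 2) lay below 2. The replicates gave the same order of the genes, except that Fst and Inhbb changed places. The replicate ranges of Acvr2b and Inha overlapped, as did those of neighbours among the weaker 4, whereas Inhba and Amhr2 did not overlap. Acvr2a lay just below Inha, with its higher value at 4.16 and the lower value of Inha at 4.19. The median over the 8 genes was 2.52, beside 4.03 over all genes whose promoters had peaks in both.

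**Figure D1:**
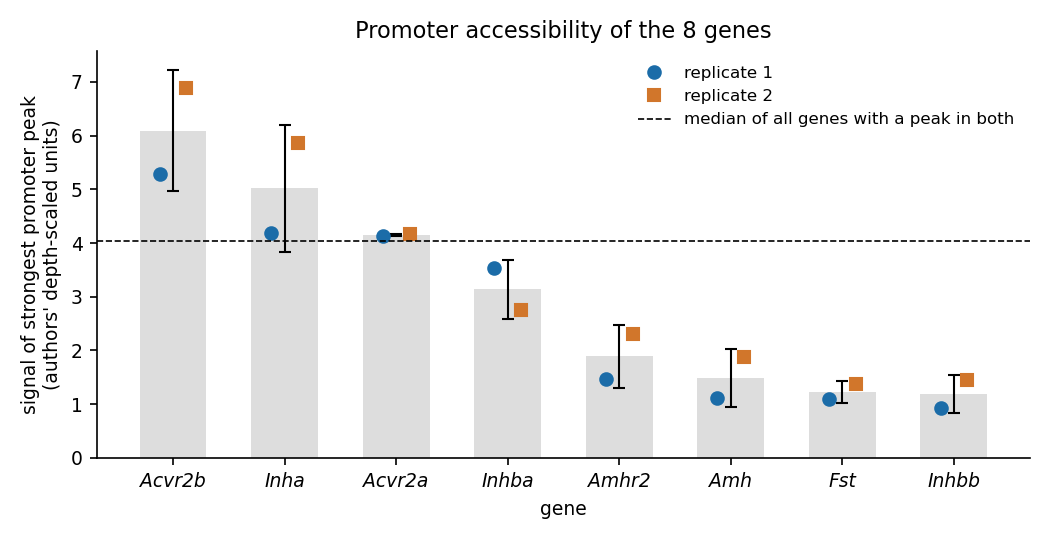
Signal of the strongest promoter peak of each gene, in the authors' depth-scaled units, with circles for replicate 1, squares for replicate 2, bars for the mean and error bars for the SD of 2 replicates. Acvr2b, Inha and Acvr2a lie above the dashed median of 4.03 for all genes whose promoters had peaks in both libraries, and Amhr2, Amh, Fst and Inhbb lie below 2.

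Inha encodes the alpha subunit, the part that is common to inhibin A and inhibin B. The gene lies at chr1:75507077-75510366 on the plus strand. Its promoter region, chr1:75506961-75507280, spans the start and had a signal of 4.19 in replicate 1 and 5.86 in replicate 2. It was stronger than the promoter peaks of 54.2% and 65.2% of the genes that had one in replicate 1 and replicate 2. Footprints numbered 3 and 4 in the replicates, and a single one was found in both, centred 29 bp downstream of the start in replicate 1 and 25 bp in replicate 2. A GATA motif match was centred at -48 bp and a variant cAMP response element (TGCGTCA) at -22 bp from the start. Neither centre lay in a footprint of either replicate, and a match is called inside a footprint here by its centre. GATA matches (AGATAA or TGATAA) occurred in the central 300 bp of 7.94% of promoter regions, and the variant element in 2.97%.

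The surroundings of Inha were dense in accessible regions, most of which lay nearer to the start of another gene. Of 26 regions in the window, 20 were shared, more than in 98.2% of gene windows. Only 2 of the 20 had the Inha start as the nearest protein-coding start, and 9 lay at promoters of neighbours. The start of Obsl1, which encodes a cytoskeletal adaptor and is read in the opposite direction, lies 625 bp away, and its own region, chr1:75506341-75506620, had signals of 2.5 and 2.92. The Obsl1 and Inha regions are separate peaks in both libraries.

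The strongest distal region of the Inha window, chr1:75559541-75559740, had signals of 6.77 and 5.78 and lies at 52.56 kb. There it overlaps an annotated untranslated part of Slc4a3, which encodes an anion exchanger. It exceeded the Inha promoter in replicate 1 and not in replicate 2. Footprints of 41 bp and 44 bp overlapped in the replicates there, and a variant cAMP response element match, centred 52550 bp downstream of the Inha start, lay in another footprint of both. A second distal region, chr1:75516841-75517280, is intergenic at 9.98 kb downstream of the Inha start and 4249 bp from the nearest start, that of Stk11ip. Its signals were 2.3 and 4.68, so replicate 2 was higher by 1.02 on the log2 scale. It is the first distal sequence printed above: the capitals GAGTCAAGGTCAGCCGGC hold the NR5A motif CAAGGNCA, centred 10104 bp downstream of the Inha start, inside footprints of both replicates. A FOX match (GTAAACA) and a GATA match in that region lay outside footprints. The remaining one, chr1:75519681-75519880, at 12.70 kb, had signals of 1.94 and 2.6 and held NR5A and FOX matches centred outside footprints. All 3 are nearest to a start other than that of Inha, and which gene any of them serves was not tested.

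Inhba encodes the beta A subunit of inhibin A and activin A, and lies at chr13:16011851-16031621 on the plus strand. Its strongest promoter peak did not span the annotated start but lay 410 bp from it, at chr13:16012261-16012500, with signals of 3.53 and 2.75. A separate region over the start itself, chr13:16011841-16012140, had signals of 1 and 0.93. The downstream peak was thus the higher in each replicate, and stood above 47.1% and 38.6% of promoter peaks. It held 3 footprints in each, and a single pair overlapped, centred 428 bp and 427 bp downstream of the start. None of the 24 motifs searched matched within it. The central 300 bp used for the shares of all regions reach past its edges, and there an NR5A match lay outside the region.

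Few other regions were found around Inhba. The window of 119.8 kb held 6 regions, of which 3 were shared, all of them nearest to Inhba, and no other protein-coding gene. That is 2.50 shared regions per 100 kb, beside a median of 4.48 over all gene windows. Counted as regions nearest to a gene's own start, its 3 were more than for 63.8% of genes. The only shared distal region, chr13:16005642-16005801 at -6.13 kb, had signals of 1.45 and 0.531 and fell by 1.45 on the log2 scale from replicate 1 to replicate 2. A further region near the second annotated start, chr13:16014332-16014440, was listed in replicate 2 only, at 0.563.

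Inhbb encodes the beta B subunit of inhibin B and activin B, and lies at chr1:119415465-119422248 on the minus strand. The promoter region, chr1:119421949-119422460, had signals of 0.937 and 1.45. The promoter was weak in both libraries, above 12.6% and 21.7% of promoter peaks. The 8 bases in capitals in the sequence printed above are where its single pair of overlapping footprints coincide. A match to the SP/KLF motif GGGCGG, centred at -120 bp, lay in the replicate 2 footprint only. That motif occurred in 63.9% of promoter regions.

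Inhbb had more shared regions nearest to its own start than any of the other 7 genes. There were 10, more than for 96.1% of protein-coding genes, and 9 of them were distal, more than for 96.9%. The median over all genes was 2 such regions, of which 1 was distal. The Inhbb window held a single other protein-coding gene, Ralb, whose start lies outside it, and no shared region at another promoter. Most of the distal regions lay downstream of the gene. The strongest, chr1:119386361-119386720 at 35.71 kb, had signals of 2.52 and 1.94, and the next of those nearest to Inhbb, chr1:119404921-119405160 at 17.21 kb, had 1.67 and 1.66. Each was stronger than the Inhbb promoter in both replicates. Another distal region, chr1:119458281-119458500 at -36.14 kb, had 2.53 and 1.05, with Ralb as the nearest start, 19579 bp away. It held a match to the AP-1 motif TGANTCA, centred outside the footprints of both replicates.

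NR5A matches recurred in the distal regions of Inhbb. Searched over their whole length, 4 of its 9 distal regions held 7 matches to CAAGGNCA or its reverse complement, and 6 of the 9 held a GATA match. The region at 17.21 kb, printed above, held 3 of the NR5A matches. One of them was centred in a footprint of replicate 1 and another in a footprint of replicate 2, and none in both. The region at 35.71 kb held 2 NR5A and 2 GATA matches, all outside footprints. The central 300 bp of all distal regions held an NR5A match in 22.9% and a GATA match in 27.8% of cases.

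Fst encodes follistatin, the secreted protein that binds activins, and lies at chr13:114452290-114458951 on the minus strand with 6 annotated starts. Its promoter region, chr13:114458345-114459080, was 736 bp wide, with signals of 1.09 and 1.38. Both values were low, above 15.3% and 20.6% of promoter peaks. The accessible chromatin of Fst was spread over a cluster of modest regions around the starts rather than concentrated in one. All 8 shared regions were nearest to Fst, more than for 93.2% of genes, and 7 of them lay between -1.80 kb and 2.50 kb from the start.

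The distal regions of the Fst cluster had mean signals below that of the promoter. The region at -1.80 kb, chr13:114460621-114460880, had 1.13 and 1. The intronic region at 1.58 kb, chr13:114457241-114457500, had 1.03 and 0.813. The intronic region at 2.02 kb, chr13:114456801-114457059, had 0.592 and 0.961, below the promoter in both replicates, with a FOX match outside the footprints. The region at -1.53 kb, chr13:114460361-114460600, was lower still in both, with 0.581 and 0.711. Replicate 2 alone listed chr13:114459141-114459240, at 0.75, and chr13:114455846-114456039, at 0.43. Footprints at Fst rarely coincided: 6 of 25 in replicate 1 (24%) and 6 of 27 in replicate 2 (22.2%) overlapped one of the other replicate. The shares over the genome were 49.9% and 45.2%.

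Amh encodes anti-Müllerian hormone, the product of granulosa cells that is used as a measure of the follicle pool. The gene lies at chr10:80805243-80807648 on the plus strand, 318 bp beyond the end of Sf3a2, a splicing factor gene. Its promoter region, chr10:80804933-80805240, fell within that gap and had signals of 1.11 and 1.87, above 15.6% and 27.6% of promoter peaks. Of the 8 promoters, it had the weakest evidence in replicate 1. The lowest deposited false discovery rate in the region was 0.00511 in replicate 1 and 3.09e-07 in replicate 2, and the shorter, stricter list of replicate 1 did not hold it, whereas the other 7 promoter peaks were in the shorter lists of both replicates.

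The Amh promoter held 2 matches to the NR5A motif, where 7.14% of promoter regions held any. NR5A1, also called SF-1, is known to bind the Amh promoter in Sertoli cells of the mouse. The match centred at -90 bp from the start had its centre in a footprint of each replicate, chr10:80805151-80805159 in replicate 1 and chr10:80805143-80805160 in replicate 2. The match centred at -200 bp lay in a footprint of replicate 2 only. Replicate 1 had 3 footprints in the region and replicate 2 had 7, and 2 pairs overlapped. The other pair, chr10:80804996-80805014 in replicate 1 and chr10:80804985-80804996 in replicate 2, shared only a single base.

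Within the gene body of Amh, accessible exons exceeded the promoter in mean signal. The exonic region at 2.24 kb, chr10:80807361-80807600, had 2.12 and 2.87, above the promoter in both replicates. The exonic region at 0.85 kb, chr10:80806001-80806192, had 2.21 and 1.09, above the promoter only in replicate 1. These and the promoter were the only shared regions of 13 in the window that had Amh as the nearest start. The other 10 belonged to a gene-dense stretch. Its strongest promoter was that of Oaz1, an inhibitor of polyamine synthesis, at 11.6 and 17.7. Of the strongest distal regions, 2 lay in introns of the histone methyltransferase gene Dot1l: the one at -47.31 kb had 2.25 and 1.8, with a match to the motif of the insulator protein CTCF in footprints of both replicates, and the one at -30.48 kb had 2.26 and 2.16.

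Amhr2 encodes the type II receptor of anti-Müllerian hormone and lies at chr15:102445367-102454633 on the plus strand. Its promoter region, chr15:102445181-102445460, had signals of 1.47 and 2.31, above 21.3% and 33.2% of promoter peaks. In the sequence printed above, the capitals CGGAGTT at the 3′ side hold the last bases of the SP/KLF match centred at -14 bp (chr15:102445350-102445355). The replicate 2 footprint (chr15:102445349-102445359) covered the whole match, and the replicate 1 footprint (chr15:102445353-102445359) its 3′ part. Of the 5 shared regions nearest to the gene, the promoter ranked below 2 others by mean signal.

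The highest was chr15:102442581-102442800, an intergenic region at -2.68 kb, with signals of 3.96 and 1.94. Replicate 1 was the higher, by more than 2-fold, and in replicate 2 the promoter was the stronger of the pair. It carried a long footprint in both libraries, 46 bp in replicate 1 (chr15:102442671-102442716) and 41 bp in replicate 2 (chr15:102442674-102442714). The long run of capitals in the printed sequence is what they share. A match to GGCGCC, a GC-rich SMAD element, was centred at its 3′ edge in both. That element occurred in 5.97% of distal regions. The exonic region at 1.25 kb, chr15:102446501-102446740, had 1.69 and 2.49, above the promoter in both replicates, and held NR5A and GATA matches outside footprints.

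The strongest distal region of the Amhr2 window, chr15:102399641-102399860 at -45.62 kb, had 5.39 and 7.95, and its nearest start was that of Sp1, 6283 bp away, the gene of a ubiquitous transcription factor. In all, 11 of 14 regions in the window were shared and 5 were nearest to Amhr2. Near its starts, chr15:102445641-102445754 was listed in replicate 1 only, at 0.71, and chr15:102447201-102447440 in replicate 2 only, at 1.13.

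Acvr2a encodes a type II receptor of activins and lies at chr2:48814109-48903269 on the plus strand. Its promoter region, chr2:48813981-48814240, had signals of 4.14 and 4.16, the closest pair among the 8 promoters. It lay near the middle of all promoter peaks, above 53.8% and 52.1%. The region held 6 and 7 footprints, and an SP/KLF match centred 31 bp downstream of the start lay in footprints of both replicates. An ETS match (ACCGGAAG) at 18 bp lay in the replicate 2 footprint alone. Over the window, 13 of 17 footprints of replicate 1 (76.5%) overlapped one of replicate 2, the highest share among the 8 genes. The window includes the promoter region of the neighbour Orc4 at 135.28 kb, where all 6 footprints of replicate 1 did so. In the Acvr2a promoter region, 4 of 6 did.

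The Acvr2a window of 189.2 kb held 6 shared regions, or 3.17 per 100 kb, beside a median of 4.48 and above 37.8% of gene windows. Of these, 4 were nearest to Acvr2a, more than for 74.9% of genes. The intronic region at 72.08 kb, chr2:48886061-48886320, had 1.11 and 0.446. The one at 0.72 kb, chr2:48814621-48815040, overlaps an annotated untranslated part of Acvr2a and had 0.764 and 0.594. Both were below the promoter in each replicate.

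Acvr2b encodes the other activin type II receptor and lies at chr9:119402118-119434995 on the plus strand. Its promoter region, chr9:119401901-119402180, had signals of 5.29 and 6.89, the highest of the 8 genes in each replicate and above 64.7% and 70.9% of promoter peaks. Footprints were also the most repeatable there: 5 of 6 in replicate 1 and 5 of 7 in replicate 2 overlapped one of the other library. SP/KLF matches centred at -126 bp and -91 bp lay inside footprints of both, and the first of these footprints was 34 bp wide in replicate 1 and 35 bp in replicate 2. In the printed sequence, 87 of 220 bases are in capitals, against 40 of 158 for Acvr2a, 16 of 216 for Amhr2 and 8 of 242 for Inhbb. The count did not follow the signal in every gene: Inha, with the next highest promoter signal, had a single footprint found in both replicates. The Inhba entry holds only 40 bases, from the weaker region over its start, which had signals of 1 and 0.93. None of these bases lay in footprints of both replicates, and the stronger Inhba peak lies outside the entry.

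The window of Acvr2b held 18 regions, of which 13 were shared and 5 were listed in replicate 1 only. Of the shared ones, 7 were nearest to Acvr2b, more than for 90.8% of genes. The intronic region at 23.27 kb, chr9:119425241-119425540, had 1.19 and 1.07. A RUNX match (TGTGGTT) was centred in footprints of both replicates there, and an overlapping NR5A match in a footprint of replicate 2 only. The distal regions at -49.87 kb, chr9:119352141-119352357, and 63.68 kb, chr9:119465701-119465900, had 1.1 and 1.04, and 1.17 and 0.563. Their nearest starts were not that of Acvr2b but those of Acaa1a, 3636 bp away, and Exog, 20714 bp away.

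**Figure D2:**
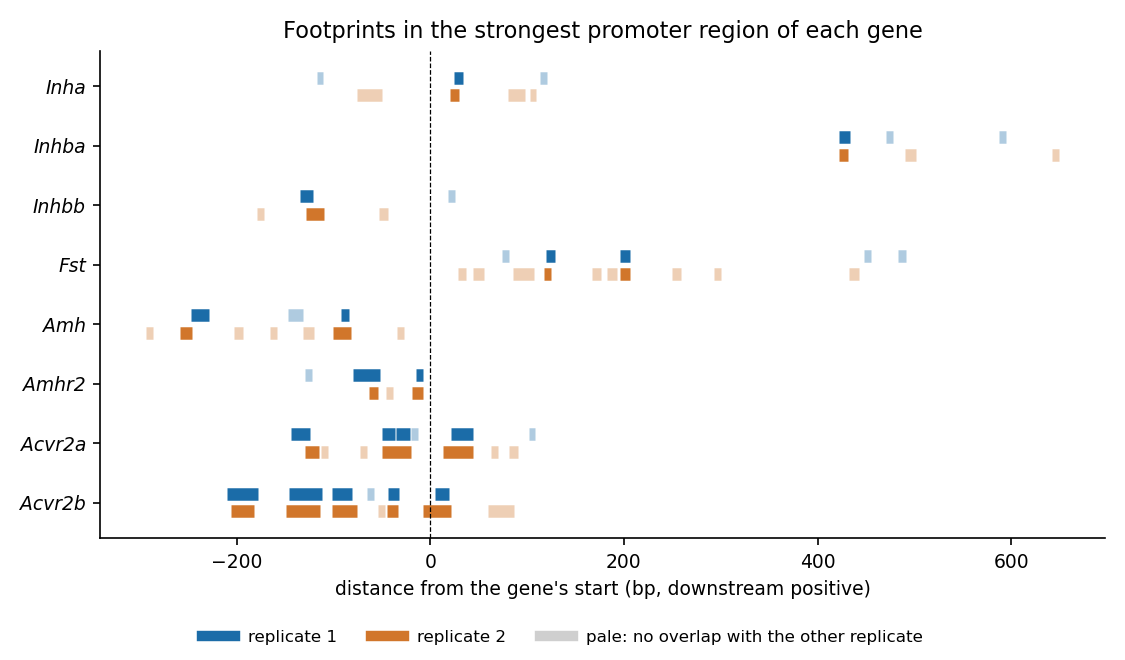
Deposited footprints in the strongest promoter region of each gene by distance from the annotated start (bp, downstream positive), with replicate 1 above and replicate 2 below, and pale bars for footprints that do not overlap one of the other replicate. Acvr2b has 5 overlapping footprints in each replicate, and Inha, Inhba and Inhbb have 1.

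**Figure D3:**
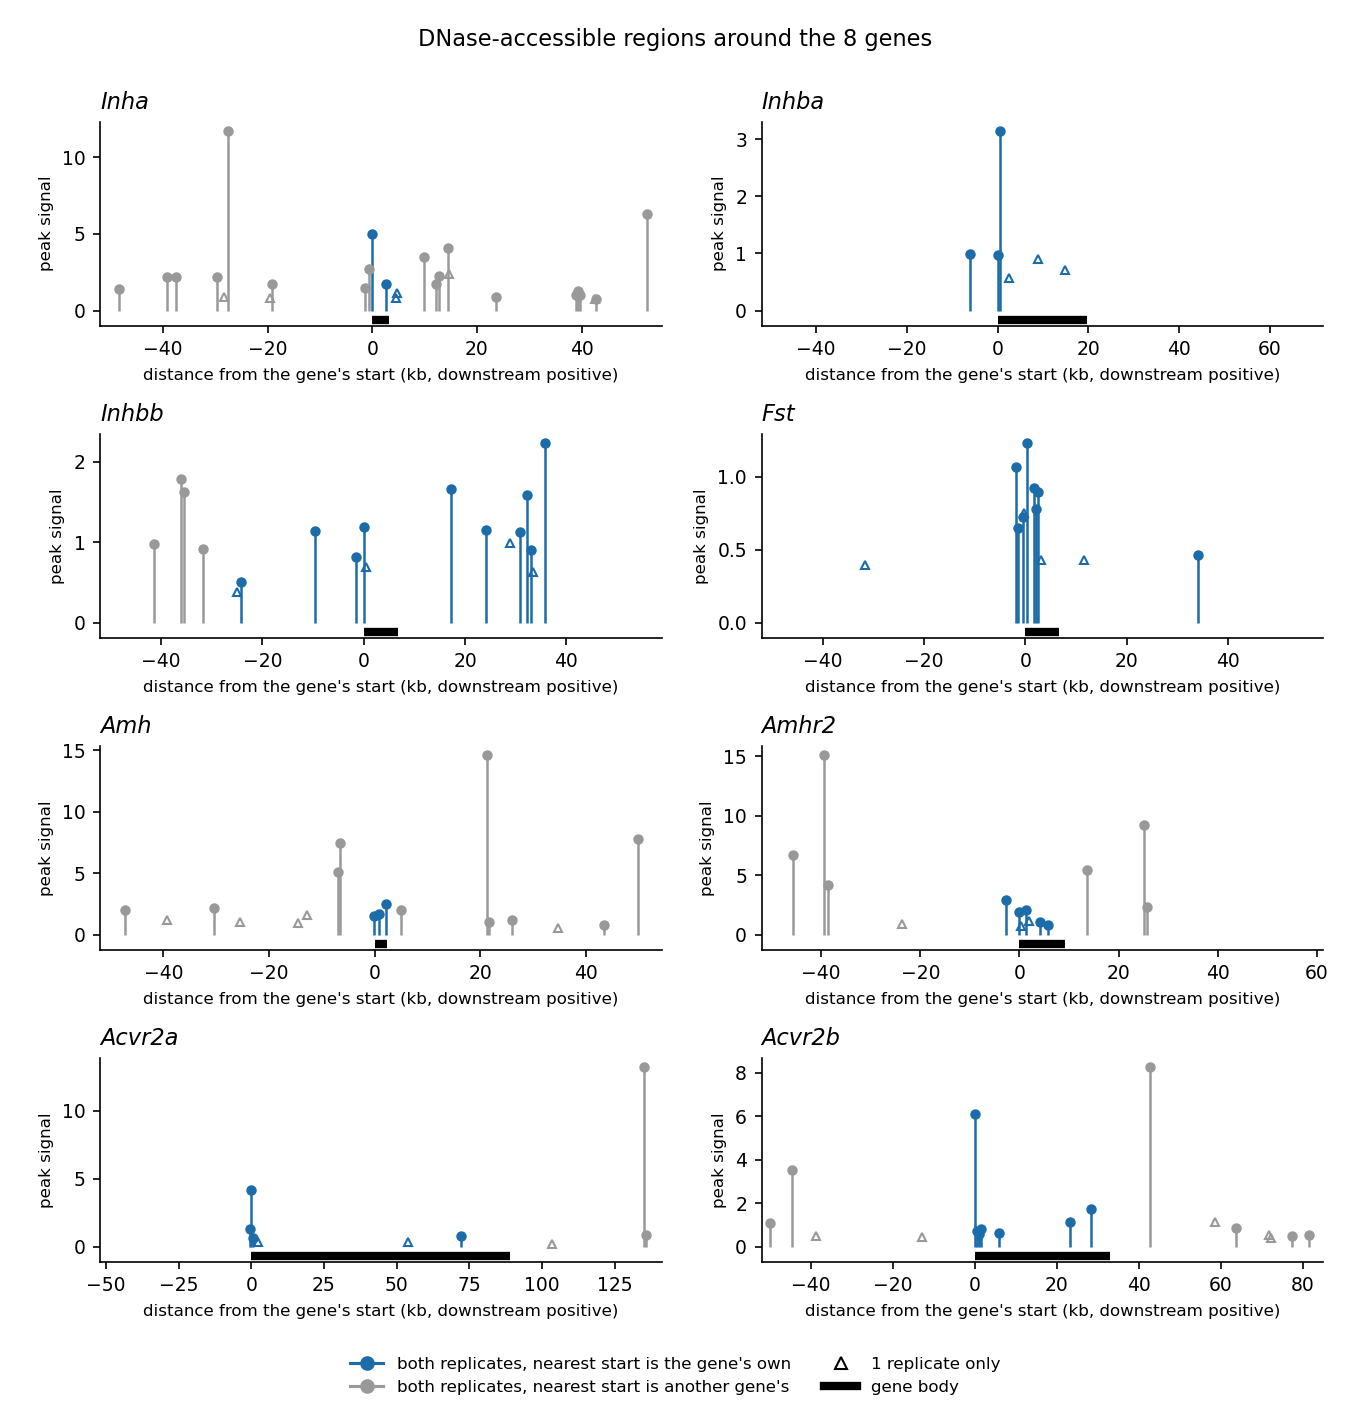
Accessible regions in the window of each gene by distance of the region's centre from the gene's start (kb, downstream positive) and mean peak signal of 2 replicates in the authors' units, on an axis of its own per gene. Triangles are regions of 1 replicate at that replicate's signal, blue marks regions nearest to the gene's own start, and the black bar is the gene body: Fst regions crowd around the start, Inhbb regions spread downstream, and around Inha, Amh, Amhr2, Acvr2a and Acvr2b the highest points are grey.

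Across the 8 windows, 88 of 121 regions were shared (72.7%), where 57.7% of regions were shared over the genome. The windows were drawn around genes, and 46 of the 88 were nearest to the start of another gene. The median window held 12 shared regions, beside 6 for all protein-coding genes, and the median number of regions nearest to the gene's own start was 4.5, beside 2. Regions nearest to a gene's own start ranged from 2 for Inha to 10 for Inhbb. The 27 distal regions among them had a median signal of 1.05, beside 0.908 for all shared distal regions.

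**Figure D4:**
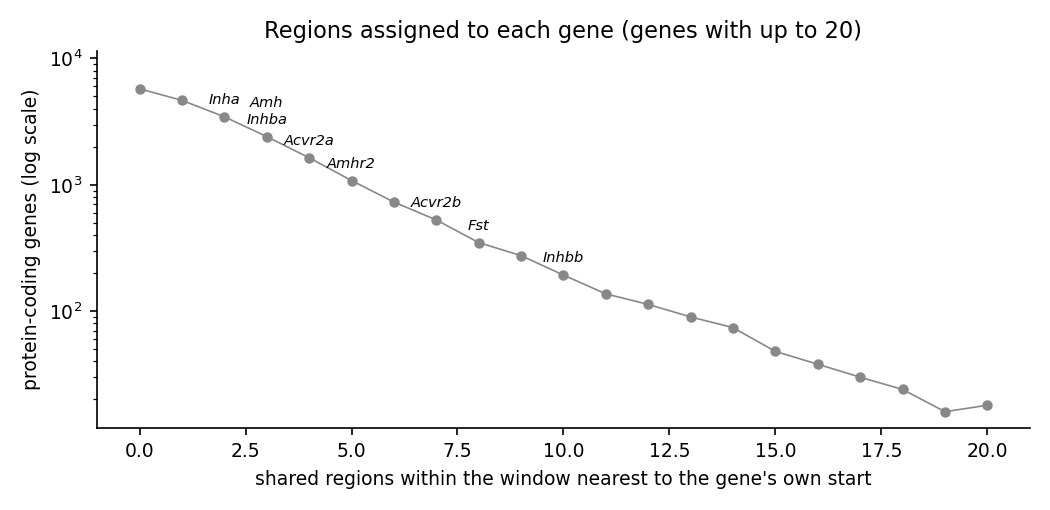
Number of protein-coding genes (log scale) by the number of shared regions in the window that lie nearest to the gene's own start, for genes with up to 20. Inhbb, Fst and Acvr2b sit in the right tail at 10, 8 and 7, and Inha sits at the median of 2.

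The libraries differed at the regions of the 8 genes about as they did elsewhere. Over the 88 shared regions, the log2 signal in replicate 2 minus that in replicate 1 was 0.03 in the median with an SD of 0.58, beside -0.03 and 0.56 over all shared regions. Of the 88, 11 (12.5%) lay beyond 2-fold of the median ratio, beside 8.62% over the genome. Of the named distal regions, those at -6.13 kb of Inhba, -36.14 kb of Inhbb, -2.68 kb of Amhr2, 72.08 kb of Acvr2a and 63.68 kb of Acvr2b were lower in replicate 2 by more than 2-fold, and the one at 9.98 kb of Inha was higher.

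**Figure D5:**
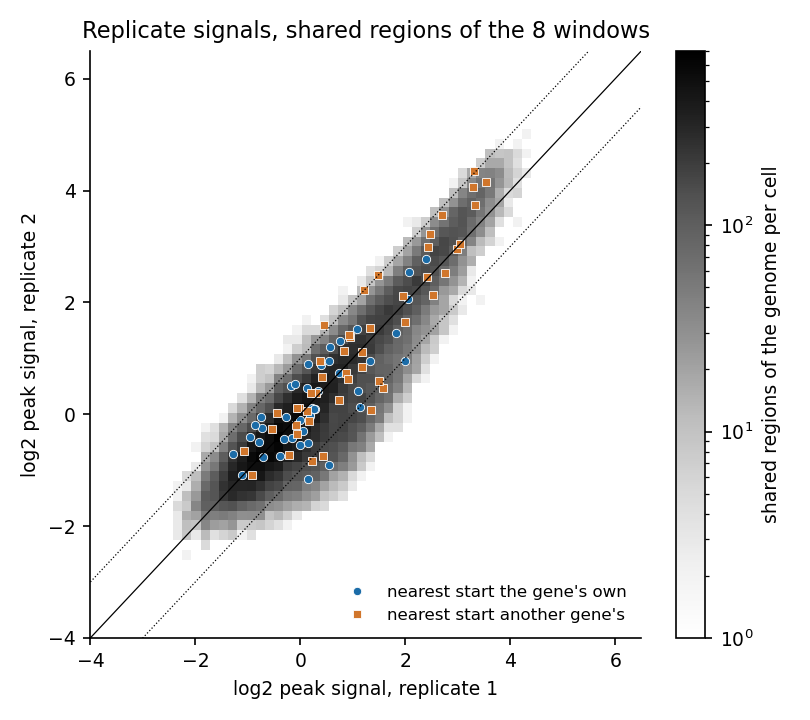
Log2 peak signal in replicate 1 and replicate 2 at the 88 shared regions of the 8 windows (circles where the nearest start is the gene's own, squares where it is another gene's), over all shared regions of the genome as grey shading on a log scale. The solid line is equality and the dotted lines are 2-fold, and 12.5% of the points lie beyond 2-fold of the median ratio.

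Footprints in the windows numbered 249 in replicate 1 and 349 in replicate 2. Of these, 143 (57.4%) and 146 (41.8%) overlapped one of the other replicate, above the genome's 49.9% in replicate 1 and below its 45.2% in replicate 2. In the 35 regions named here by rule (8 promoter regions, 21 distal regions and 6 listed by 1 replicate near a start), the motifs searched gave 87 matches, of which 11 were centred in footprints of both replicates. SP/KLF made up 5 of the 11 and NR5A 2, those at the Amh promoter and downstream of Inha. None of the 9 GATA and 4 FOX matches was in a footprint. No share of matches in footprints over the genome is given, so these counts do not set the motifs apart. NR5A matches were found in 8 of the 35 regions, in 6 of the 8 windows. In the central 300 bp of the 27 distal regions nearest to these genes, 7 held an NR5A match (25.9%), close to the 22.9% of all distal regions, so the motif's presence does not set these regions apart. A match is a run of letters and not evidence of binding.

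The other genes of the pathway were accessible for the most part: 23 of 26 had promoter peaks in both libraries (88.5%, beside 62.3% of all genes), with a median signal of 3.76. Those without one were Inhbc and Inhbe, the beta C and beta E subunit genes known for expression in liver, and Foxh1, which encodes a DNA-binding partner of SMAD proteins. Among the binding proteins, Fstl3, a follistatin relative that also binds activins, had promoter signals of 6.81 and 10.2, above the 1.09 and 1.38 of Fst in both replicates. Among the receptors, the activin type I receptor gene Acvr1b had 4.34 and 5.66 and Acvr1c, the gene of another type I receptor, had 1.1 and 1.35. Tgfbr3, which encodes betaglycan, the co-receptor of inhibin, had 3.27 and 4.1, and Bambi, which encodes a decoy receptor, had 8.7 and 12.9. Of the SMAD genes that carry the activin signal, Smad2 had 4.93 and 8.96, Smad3 had 7.55 and 13.9, and their partner Smad4 had 8.73 and 9.29. Smad9, a mediator of bone morphogenetic protein signals, had 1.67 and 2.34. The lowest of those with a peak in both was Igsf1, at 0.495 and 0.352.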

How the data were processed

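DNase-seq of whole ovary was deposited for 2 libraries, each with 2 narrow peak lists, footprints and a cut-rate list on mm10, made per library and not pooled, per the text files deposited with the samples. The sources used here do not name the aligner, peak caller, footprint caller or versions. The peak signal was scaled for depth by the authors, to a target not stated; the deposited peak lists give no p-value or q-value for any peak. Deposited footprints carry a constant p-value label of 0.01, and the deposited cut-rate list gives a false discovery rate only where it is under 0.05.

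Longer lists were used. Peaks overlapping by at least 1 bp formed regions, and a gene's promoter value was its strongest peak within 500 bp of an annotated start. Percentiles are over genes with a promoter peak in that replicate. There is 1 group of 2 libraries, so no test was made: values are given with mean and SD. Named were the 8 genes, every pathway gene by count, and for each gene the strongest promoter region, the 3 strongest shared distal regions, and regions of 1 replicate within 2 kb of a start; other regions named were chosen after their values were seen. Motifs (24) were searched on both strands without mismatch. The members and lists were chosen with earlier results of these data known. Python 3.11.15, pandas 2.3.3, NumPy 2.4.6, SciPy 1.17.1 and Matplotlib 3.10.9 were used. All 29 checks on simulated data passed. Alternatives were the shorter lists, other promoter widths, flanks and overlaps, and each replicate alone.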

Additional observations from a re-analysis of the deposited data

How the results depend on the processing

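The count of 88 shared regions in the 8 windows fell to 44 with 10 kb on either side of the gene bodies, to 25 in the gene bodies alone, and to 28 with only the strongest 20000 peaks of each library. It was 62 with the shorter lists, 76 with a reciprocal overlap of 50% and 124 with 100 kb on either side. With 1 replicate left out, the count was 105 to 110, all peaks of the other replicate, since sharing is then not required. The 143 footprints found in both replicates became 105 under a reciprocal overlap of 50% and 138 inside shared regions only, and with 1 replicate left out the count was 249 to 349, since overlap is then not required. The 87 motif matches in the named regions came down to 11 when their centre had to lie in footprints of both replicates. Every gene kept its promoter peak under each alternative except Amh, which the shorter list of replicate 1 does not hold (7 of 8 genes). The mean signal of Amh was 2.04 with a promoter of 2000 bp. In replicate 1 the exonic region at 0.85 kb (2.21) was then the strongest, and in replicate 2 the promoter peak (1.87) remained so. The other pathway genes with a promoter peak in both numbered 20 to 24 under the alternatives, beside 23. No paired analysis was possible because the labels give a single group. Read depth is unknown, so a weak region listed in 1 replicate may have been below what the other could detect.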

Other observations

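In 6 places of the 8 windows, footprints of at least 30 bp in both replicates overlapped: 3 in the window of Amhr2 and 1 each in those of Inha, Acvr2a and Acvr2b. These were chosen after their values were seen. Those at -39.12 kb and 13.69 kb of Amhr2 lie at the promoters of Sp1 and Prr13, and that of Acvr2a at the promoter of Orc4. The Inha one lies at an exon of Slc4a3. Only the ones at -2673 bp of Amhr2 and in the Acvr2b promoter lie in regions nearest to the gene itself. The one at -2673 bp of Amhr2 and the one 52613 bp downstream of the Inha start lie on different chromosomes. They shared a run of 12 identical bases, the longest among the pairs of the 6, where the other pairs shared 4 to 10. No such run was measured between other footprints, and whether these places are linked was not tested.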
